A study of Mus musculus with 5 samples.

Results

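Gata6 peaks were described at the loci of 3 genes, Gata6 itself, its close relative Gata4 and the cofactor gene Zfpm1, also called Fog1. The list held 7737 peaks on the mouse genome build mm9, and 17 of them had their midpoint in 1 of 3 windows placed around these genes. The window at Gata6 spanned 10.95 to 11.2 Mb of chromosome 18, that at Gata4 63.72 to 63.95 Mb of chromosome 14 and that at Zfpm1 124.77 to 124.9 Mb of chromosome 8. The loci were chosen by position with their peaks in this list already known, so the numbers of peaks are a description and carry no test.

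The peaks come from chromatin immunoprecipitation and sequencing (ChIP-seq) with a Gata6 antibody on whole pancreas of wild-type C57BL/6 mice. There were 4 Gata6 libraries, 2 from animals aged 5 weeks and 2 from animals aged 14 weeks, and 1 library of input DNA pooled over the replicates. A single list without a score, height or value per library was deposited, so sequencing depth, spread between animals and any difference between the ages are unknown, and every count below has no replicate check. Whole pancreas consists mostly of acinar cells, and the list does not say in which cells a site was bound.

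Gata6 and Gata4 are transcription factors that read GATA motifs through a pair of zinc fingers. They can take each other's place to a large extent when the pancreas forms, and Gata6 is also needed to keep acinar cells differentiated in the adult. Zfpm1 is a multi-zinc-finger protein that does not bind GATA motifs itself but attaches to the N-terminal finger of a GATA factor and brings in corepressor complexes, a role best known from blood cells. Regulation of a factor's own gene, of a relative's gene and of a cofactor's gene are known features of GATA networks.

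All 3 loci carried Gata6 peaks, and they differed in number, width and spacing. Gata6 had 3 peaks in 250 kb, Gata4 had 5 in 230 kb and Zfpm1 had 9 in 130 kb. This amounted to 12.0, 21.7 and 69.2 peaks per Mb. These densities depend on the windows' sizes, which differ and were set with the list known. Widened by 50 kb at each end, the windows held 5, 5 and 9 peaks. Trimmed by 20 kb at each end, they held 3, 4 and 9. The chromosomes as a whole held 2.88 peaks per Mb (18), 2.17 (14) and 3.11 (8). The median widths at the loci were 959, 1561 and 1297 bp, against a median of 728 bp in the list. The widest peaks of the loci measured 2475, 2098 and 2740 bp. These widths were reached by 0.685%, 1.37% and 0.388% of the list. They are the widest of 3, 5 and 9 peaks, while the shares count single peaks.

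**Figure D1:**
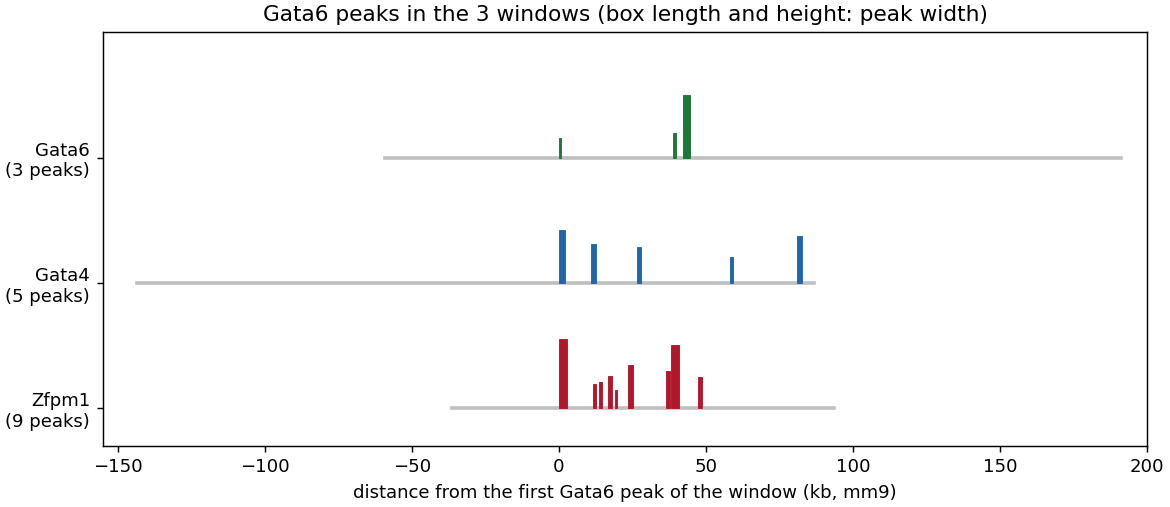
Gata6 peaks of the 3 windows, drawn to scale along a horizontal axis in kb from the first peak of each window. Grey lines are the windows, and the length and height of each box both show the width of a peak. The 9 Zfpm1 peaks lie within 48.6 kb, while the 5 Gata4 peaks are spread over 82.7 kb and the 3 Gata6 peaks over 44.7 kb.

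At its own gene, Gata6 had a close pair of peaks and a single one apart from it. The widest lay on chromosome 18 at 11051262 to 11053736 and measured 2475 bp, a width reached by 53 of the 7737 peaks. Its partner at 11047869 to 11048827 measured 959 bp. The edges of this pair were 2.43 kb apart and the midpoints 4.15 kb. The third peak, at 11009006 to 11009764, was 759 bp wide, close to the list's median, and its midpoint was 39.0 kb from the next. The wide peak alone made up 59.0% of the 4193 bp covered by peaks in the window.

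The Gata6 peaks sat in the lower part of their window. From the wide peak to the next peak upwards on the chromosome was 320 kb, a gap that 21.4% of the gaps between neighbouring peaks of the list reached. Downwards, a peak of 570 bp at 10935430 to 10935999 lay 14.3 kb outside the window and 73.7 kb from the first peak inside it. This distance was near the list's median gap of 79.1 kb. The count of 3 depends on the window's lower edge, since a window widened by 50 kb at each end held 5 peaks, the added ones all below. The window lies in band qA1, of the darkest stain class (gpos100).

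Gata4 had 5 peaks, all wider than 1 kb, while 24.7% of the list reached 1000 bp. Another midpoint within 10 kb was found for 28.9% of the list but for none of these 5. In chromosome order, the first lay on chromosome 14 at 63863259 to 63865356 and measured 2098 bp, and the second at 63874225 to 63875785 measured 1561 bp. The third, at 63889645 to 63891077, was 1433 bp wide. The fourth, at 63921464 to 63922500, was the narrowest with 1037 bp. The fifth, at 63944054 to 63945914, measured 1861 bp. Its midpoint lay only 5.02 kb inside the window's upper edge, so the count of 5 depends on that edge.

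Gata4 peaks were thus more even in width than those of the other loci, from 1037 to 2098 bp with a median of 1561 bp. The gaps between their midpoints were 10.7, 15.4, 31.6 and 23.0 kb. The shortest of these exceeded the 10 kb limit used for neighbours by less than 1 kb, so a slightly longer limit would join the first pair. The next peak downwards was 485 kb away from the first, a gap reached by 15.2% of the gaps of the list, and the next upwards 153 kb from the fifth, reached by 35.9%. The 1 Mb below the window held 1 peak and the 1 Mb above it 7.

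Zfpm1 had the most peaks. They fell into a wide single peak, a row of 5 and a row of 3, when midpoints within 10 kb were joined. The single peak lay on chromosome 8 at 124806470 to 124809209 and measured 2740 bp. It was the widest of all 17, and 30 of the 7737 peaks were at least as wide. It stood 10.7 kb from the next midpoint, again only slightly beyond the limit.

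The peaks of the row of 5 measured 731 to 1731 bp. They lay at 124818045 to 124819000 (956 bp), 124820027 to 124821069 (1043 bp), 124823153 to 124824449 (1297 bp), 124825650 to 124826380 (731 bp) and 124829804 to 124831534 (1731 bp). Their midpoints followed each other at 2.03, 3.25, 2.21 and 4.65 kb. The peak of 731 bp was the narrowest of all 17 and was about as wide as the median peak of the list.

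The row of 3 at Zfpm1 began with a tight pair. A peak of 1466 bp at 124842942 to 124844407 was followed after 303 bp by one of 2522 bp at 124844711 to 124847232, and a peak of 1246 bp lay further on at 124853791 to 124855036. The midpoints of the 3 followed at 2.30 and 8.44 kb. A distance of 303 bp is shorter than either peak. Whether the pair is 1 enriched region listed in parts was not tested, as the list holds no signal between peaks. Counted as 1, they leave 8 peaks at the locus. The nearest peaks outside the window were 370 kb below and 114 kb above the Zfpm1 peaks.

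The only promoter of these 3 genes in the RefSeq table used here was that of Zfpm1. Its 250 bases before the gene's start are shown with CG pairs in capitals, from build GRCm38.p6, plus strand. The peaks are on mm9, and no peak was placed on this sequence or away from it.
Zfpm1: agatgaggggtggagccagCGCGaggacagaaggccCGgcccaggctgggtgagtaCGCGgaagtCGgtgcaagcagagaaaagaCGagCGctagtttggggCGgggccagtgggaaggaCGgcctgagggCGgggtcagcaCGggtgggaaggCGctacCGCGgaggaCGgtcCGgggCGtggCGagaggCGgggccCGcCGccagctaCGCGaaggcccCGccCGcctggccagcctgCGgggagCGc

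The Zfpm1 promoter was rich in CG pairs. It held 28 of them, a number reached by 7.61% of the 32851 promoters in the table (median 6), and its GC content was 73.2% against a median of 52.4%. None of the motifs AGATAA or AGATAG or TGATAA or TGATAG occurred in it on either strand, while 26.5% of all promoters of this length held at least 1. The core letters GATA were also not in it on either strand, and 53.6% of all promoters held them. This describes these 250 bases only. Promoters of like GC content were not compared, so whether the absence of these motifs goes with the base composition was not tested.

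Set against windows of the same size across the 19 autosomes and X, the 3 counts ranged from common to rare. At least 3 peaks, as at Gata6, were found in 1033 of 10547 windows of 250 kb (9.79%). At least 5, as at Gata4, were found in 293 of 11464 windows of 230 kb (2.56%). These windows were laid from the start of each chromosome, and no single one held more than 4 of the 5 Gata4 peaks. At least 9, as at Zfpm1, were found in 10 of 20291 windows of 130 kb (0.0493%), one of which was the window on Zfpm1 itself. With peaks whose edges lay within 2 kb merged, Zfpm1 had 6, and 0.168% of windows had as many. The mean window of these sizes held 0.733, 0.674 and 0.381 peaks, and the loci had 4.09, 7.42 and 23.6 times as many. Most windows were empty (66.7%, 68.2% and 77.9%).

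**Figure D2:**
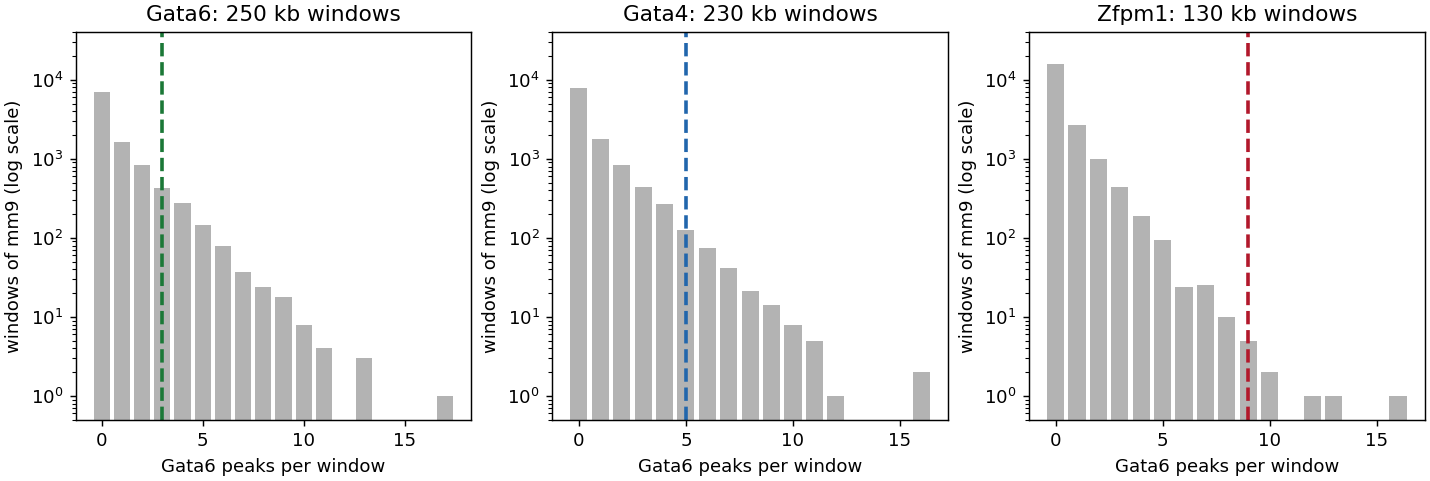
Number of Gata6 peaks per window (horizontal axis) and number of windows of mm9 with that many (vertical axis, log scale), for windows of the size used at each gene. Dashed lines mark the genes' own counts of 3, 5 and 9. Windows with 9 or more peaks were rare, and 1033 windows reached the count of Gata6.

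These shares depend on what a window is compared with. Among windows of the same sizes centred on the list's own peaks, 59.4% held at least as many as Gata6, 26.1% as many as Gata4 and 1.67% as many as Zfpm1. A place with 3 peaks in 250 kb was therefore common around peaks in general. Among windows in the darkest bands, the class of Gata6's own band, 187 of 3240 (5.77%) held 3 peaks or more.

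By the length covered with peaks, all 3 loci stood higher than by the number of peaks. Peaks covered 4193 bp at Gata6, 7990 bp at Gata4 and 13732 bp at Zfpm1. As much or more was covered in 2.80% of windows for Gata6, 0.393% for Gata4 and 0.0197% for Zfpm1, the last being 4 windows. Peaks took up 1.68%, 3.47% and 10.6% of the windows' length.

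Spacing was also set against the whole list. Among all stretches of 3 neighbouring peaks, 14.0% were no longer than that of Gata6 (43.1 kb between outer midpoints). For 5 neighbouring peaks and the 80.7 kb of Gata4 the share was 5.62%. For 9 peaks and the 46.6 kb of Zfpm1 it was 0.172%, or 13 of 7573 overlapping stretches. The median gap between neighbouring midpoints was 21.6 kb at Gata6, 19.2 kb at Gata4 and 3.95 kb at Zfpm1. With peaks whose edges lay within 2 kb merged, it was 9.33 kb at Zfpm1 and as before at the other loci. At Zfpm1 8 of 9 peaks had another within 10 kb, at Gata6 2 of 3 and at Gata4 0 of 5. Of the 17 peaks 10 had one, where 28.9% of the list did.

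The peaks of these loci were mostly wide. A width of 1000 bp or more was found in 13 of the 17, against 24.7% of the list. These were 5 of 5 at Gata4, 7 of 9 at Zfpm1 and 1 of 3 at Gata6. The median of the 17 widths was 1433 bp and the range 731 to 2740 bp. The narrowest of the 17 was still wider than the median of the list by 3 bp. In the median, Gata4 peaks (1561 bp) came before those of Zfpm1 (1297 bp) and Gata6 (959 bp), but widths overlapped between all 3 loci. The SD between peaks was 407 bp at Gata4 (n = 5), 692 bp at Zfpm1 (n = 9) and 938 bp at Gata6 (n = 3).

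**Figure D3:**
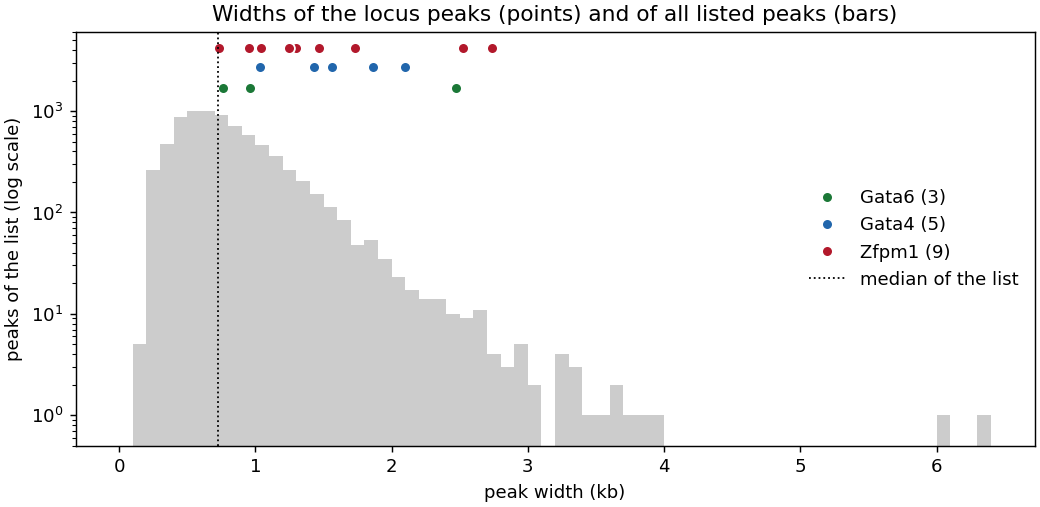
Widths in kb (horizontal axis) of the locus peaks, drawn as 1 row of points per gene, over the number of all listed peaks per width class of 0.1 kb (grey bars, log scale). The height of the rows of points has no meaning. All 17 points lie to the right of the dotted median of the list at 728 bp, the lowest by 3 bp only.

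The place of the peaks in the list was not named in the rule that chose the loci. It is no independent measure, since the loci were chosen with the list known and early lines held wider peaks. It is described without a test. The list is not in genome order as a whole but made up of 94 runs of lines, each sorted by position. What separates the runs is not stated. The first run held 90 lines, 1.16% of the list, and 4 of the 17 locus peaks were among them. These were the 2475 bp peak of Gata6 (line 44), the 1861 bp peak of Gata4 (line 24) and the peaks of 2740 and 2522 bp at Zfpm1 (lines 81 and 82). Each of the 3 loci thus had a peak in the first run.

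The first run held wide peaks in general. Its median width was 1064 bp, and 57.8% of its peaks reached 1000 bp. The 4 locus peaks in it were wider than that median, with 1861 bp as the narrowest. The other 13 locus peaks were spread over 9 later runs, from line 856 to line 7524, and 9 of these 13 reached 1000 bp. Width and place in the list did not go together throughout. The widest Gata4 peak, of 2098 bp, came at line 7524 in run 87, and the 1731 bp peak of Zfpm1 at line 6120. Along the list, the median width fell from 820 bp in the first 774 lines to 606 bp in the last 773. The first 3868 of the 7737 lines held 13 of the 17 locus peaks.

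**Figure D4:**
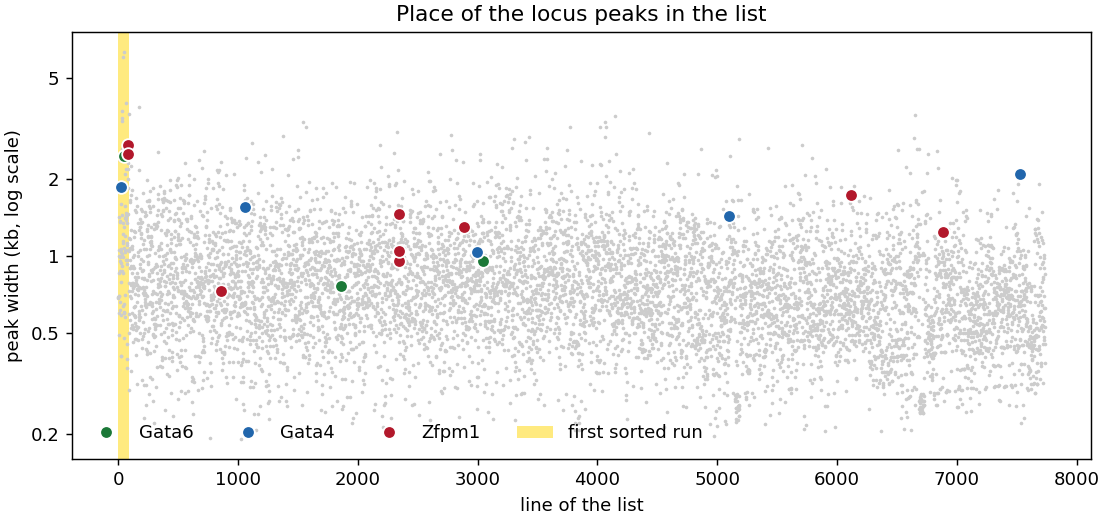
Width in kb (vertical axis, log scale) of each listed peak by its line in the list (horizontal axis). Grey points are all 7737 peaks, coloured points the 17 locus peaks, and the yellow band marks the 90 lines of the first sorted run. Gata6 and Gata4 each have 1 peak in the band and Zfpm1 has 2.

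The windows also hold sequence outside the named genes. In gene order, taken from RefSeq on GRCm38.p6 without its positions, Gata6 follows the long noncoding RNA genes 9130001E16Rik and Gata6os and precedes Gm35918 and the protein-coding gene Rbbp8. Gata4 lies between Neil2, a DNA repair enzyme gene, and the RNA gene Gm4151, with the kinase gene Blk as the next protein-coding gene on that side. Zfpm1 lies between the noncoding RNA genes Gm39269 and Gm46056, with the receptor gene Trhr2 beyond the latter. Neither genes nor sequence of mm9 were used here. Which of the 17 peaks lie on promoters, exons, introns or between genes, and whether they hold GATA motifs, was therefore not analysed.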

How the data were processed

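The data were Gata6 ChIP-seq libraries of mouse pancreas (4 samples) and 1 pooled input, grouped by their titles. The authors deposited 1 list of 3 columns (chromosome, start, end) and no header. The positions are base pairs of mm9, per the submitters' processing notes, which also name CASAVA 1.8 and BWA 0.5.9-r16 without roles. The list's name holds FDR and the digit 1, which may refer to a threshold on the false discovery rate but is not explained. The peak caller, its use of the input library and any pooling were not stated, and the peaks were treated as 1 pooled result. Whether differences in mappability or coverage were corrected is not known. Starts were taken as 0-based, as in BED files, and are printed 1-based.

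The members and lists were chosen with earlier results of these data known. A peak belonged to a window by its midpoint. Every peak was printed, as each window held at most 15. Fixed windows of the same size, counted from the start of each of the 19 autosomes and X, served as background, without any test. Stretches of neighbouring peaks and windows by band stain were added after the values were seen. Lengths of mm9 came from GenomeInfoDb 1.38.1, bands from circlize 0.4.16 (R 4.3.3). Python 3.11.15, numpy 2.4.6, pandas 2.3.3 and scipy 1.17.1 did the rest, and matplotlib 3.10.9 the plots. Window counts were tested on made-up peaks with known positions. Promoters came from RefSeq (GRCm38.p6), which matched 1 of the 3 genes.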

Additional observations from a re-analysis of the deposited data

How the results depend on the processing

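Of 63 alternative values, 41 stayed within their tolerance (1.5 times for counts, the exact 95% binomial interval of a share, 1 SD between peaks for widths and gaps) and 22 moved past it. The comparison by band stain was added after the data were seen. Peaks in the window rose from 3 to 5 at Gata6 when it was widened by 50 kb at each end. Gata4 kept 3 of 5 in the first 3868 of the 7737 lines. At Zfpm1 merging peaks with edges within 2 kb left 6 of 9, a count still within tolerance. It raised the median gap from 3.95 to 9.33 kb, which was past it. The share of windows with at least as many peaks, in the order Gata6, Gata4 and Zfpm1, was 9.79%, 2.56% and 0.0493%. It became 29.4%, 8.04% and 0.223% among windows with a peak, and 59.4%, 26.1% and 1.67% among windows centred on peaks. With edges within 2 kb merged it was 8.83%, 1.91% and 0.168%, and among peaks of at least 728 bp 4.04%, 0.803% and 0.0197%. By covered bp it was 2.80%, 0.393% and 0.0197%. For Gata6 it was 10.7% on autosomes without their first 3 Mb and 5.77% within bands of the same stain, where for Gata4 it was 3.06%. For Zfpm1 it was 0.0987% on its own chromosome. The populations of windows differ by construction. Zfpm1 had the smallest share and Gata6 the largest in each of these settings run for all 3. No paired analysis was possible because the peaks have no value in single libraries, and leaving out a library was not possible for the same reason. Unknown depth leaves the number of weaker sites missed at these loci unknown.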

Other observations

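The promoter table was also read for the GATA and FOG family. It held 6 promoters of 5 of the 8 genes listed (Gata1, Gata2 with 2, Gata3, Gata5 and Zfpm1). Gata1, the factor of red cell development, was the exception in base composition, with 2 CG pairs in its 250 bases and a GC content of 54.0%. Gata2 had 22 and 24 CG pairs, Gata3 19 and Gata5 22. None of these 6 held 1 of the 4 motifs of 6 bases, and Gata1 alone held the letters GATA. With 6 promoters and a share of 26.5% among all promoters, this absence was not tested and is given as a description.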
